A study of Mus musculus with 120 samples.

Results

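The genes described here are 34 genes of ribosome biogenesis, the pathway that makes ribosomes from ribosomal RNA and ribosomal proteins. They were taken by name and not by their values, and they make up 34 of the 18194 genes with a probeset of their own on the Mouse 430_2 array. On the smaller Mouse 430A_2 array 33 of 12394 genes were members, since Dkc1 had no probeset of its own there. The cells were clones of EB3, a mouse embryonic stem (mES) cell line kept undifferentiated with leukemia inhibitory factor. Each clone carried 1 coding sequence of a human chromosome 21 gene with a 3xFLAG tag in the ROSA26 locus. Its Tet-off construct is meant to be silent while tetracycline (Tc) is present. With Tc present, the study found a significant but mild leak for Pdxk only. The coding sequences were murine for all genes but Zfp295, Dyrk1a and Snf1lk, which were human.

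Uninduced cells were grown with Tc and induced cells were grown after its withdrawal, with 3 clones per gene and state, 6 arrays per experiment and 120 arrays in 20 experiments. Induction lasted 24 h for Bach1, Dscr1, Erg, Ets2, Gabpa, Nrip1, Olig1, Pknox1, RIKEN-1810007M14, Dyrk1a, Snf1lk, Pfkl, Olig2, Zfp295 and Runx1. It lasted 39 h for Hunk, Ripk4 and Sim2 and 48 h for Aire and Pdxk. These are the times of the labels, and the study's induction table has 39 h for Pfkl. Runx1 alone was run on the Mouse 430A_2 array. The clones of a gene share the parental line, and induced cells were also washed, trypsinized and re-plated. No clone without a transgene was profiled among the arrays used here, so the transgene and the withdrawal of Tc cannot be told apart within 1 experiment. The Zfp295 and Hunk clones were grown with more puromycin than the others.

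Ribosomes are assembled mainly in the nucleolus. RNA polymerase I transcribes a long precursor RNA, small nucleolar ribonucleoproteins (snoRNPs) guide its methylation and pseudouridylation, and large sets of assembly factors cut and fold it into the small and the large subunit. The pathway is highly active in dividing cells such as mES cells, and many of its genes are classical targets of the transcription factor Myc, which binds the DNA word CACGTG, a form of the E-box.

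The promoters of 29 members were found in RefSeq (build GRCm38.p6, windows of equal length that reach from upstream to just downstream of a start site). CACGTG was present on either strand in 9 of the 29 (31%), against 8.09% of all 27018 genes with a promoter of the same length. The 9 members were Imp4, Ltv1, Mybbp1a, Nop2, Pes1, Pno1, Tsr1, Utp20 and Wdr43. CCGGAAG, a word bound by ETS factors such as Erg, Ets2 and Gabpa, was searched on both strands and found in 8 of the 29 members (27.6%), against 9.93% of all genes. These were Gar1, Heatr1, Ltv1, Nip7, Noc2l, Nolc1, Nop2 and Tsr1. TGTGGTT, a word bound by Runx1, was found in 0 of the 29, against 6.09% of all genes. A match is a description of the letters and not a binding site. Stretches upstream of the start are printed for Imp4, Nop2 and Nip7, which are among the members that passed the test below. Capitals mark the matched word, CACGTG in Imp4 (chr1:34439678-34439743, plus strand) and Nop2 (chr6:125131793-125131858, plus strand) and CCGGAAG in Nip7 (chr8:107056744-107056810, plus strand).
Imp4: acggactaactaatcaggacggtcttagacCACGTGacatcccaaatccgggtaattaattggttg
Nop2: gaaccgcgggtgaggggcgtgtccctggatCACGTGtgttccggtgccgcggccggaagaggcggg
Nip7: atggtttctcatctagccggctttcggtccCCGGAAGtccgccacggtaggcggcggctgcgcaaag
Counted from the start site, the word began at position -121 in Imp4, -60 in Nop2 and -103 in Nip7. In all other members with CACGTG the word began downstream of the start, from position 2 in Pes1 to 40 in Mybbp1a. Nop2 also held CCGGAAG at position -38, and Nip7 held it again on the opposite strand, downstream of the start at position 8.

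The deposited values are log2 levels, and each gene is represented by the probeset of highest mean. All 34 members lay above the upper quartile of the array on all 114 Mouse 430_2 arrays, with mean levels from 8.55 (Polr1a) to 13.71 (Npm1). All 12 pluripotency markers, among them Pou5f1, Nanog and Sox2, lay above the array median on every array of both designs. Of the 8 fibroblast markers, 1 did so on the Mouse 430_2 arrays and 0 on the Mouse 430A_2 arrays. On all Mouse 430_2 arrays 1 of 8 endoderm, 2 of 6 trophoblast, 2 of 6 neural and 2 of 8 blood and endothelium markers did. On all Mouse 430A_2 arrays the counts of these lists were 1, 1, 2 and 1. The probeset of the overexpressed gene itself passed the test in 1 of the 20 experiments, Runx1, where it rose by 1.13 (adjusted p = 0.0356, limma). The transgenes are coding sequences without untranslated regions, and where the probesets lie relative to them was not examined, so this does not check the labels.

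The first question was which members responded to which gene. A change is given as induced minus uninduced in log2 units, paired within the clone, and called at a limma adjusted p under 0.05. Over 679 pairs of a member and an experiment, 5 were called lower and 0 higher, in 3 of the 20 experiments, for the probeset of highest mean of each gene. The unadjusted p was under 0.05 in 44 pairs that were lower and 3 that were higher. The share of all probesets lower at that threshold ran from 0.993% with Dscr1 to 16.9% with Runx1. Of all pairs, 91.3% had a change smaller than 0.2 in either direction, and 4 had a change larger than 0.5. The median standard error was 0.0870.

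**Figure D1:**
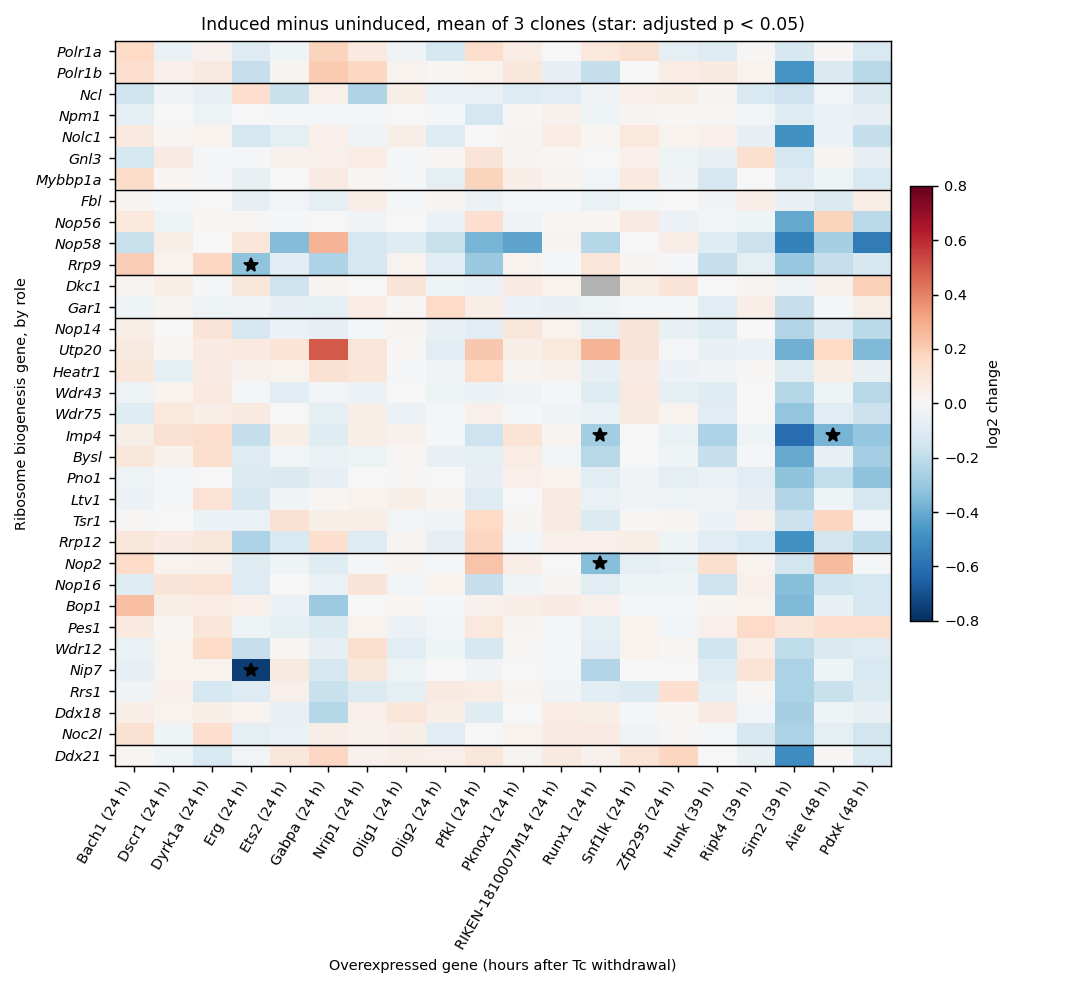
Change in log2 level (induced minus uninduced, mean of 3 clones) of the 34 members, in rows grouped by role, in 20 experiments, in columns ordered by induction time. Blue is lower and red higher after induction, grey is not measured, and a star marks the 5 called pairs. The Sim2 column is blue in all but 1 row.

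The largest single change came with Erg, an ETS transcription factor. Nip7, a factor of large subunit maturation, lay at 11.37, 11.48 and 11.54 in the 3 uninduced clones and at 10.58, 10.94 and 10.61 in the induced ones. The groups did not overlap, and every clone was lower. The difference of -0.75 ± 0.0964 (SE, n = 3 pairs, limma adjusted p = 0.00245) is a fall of 40.6% on the linear scale. A second Nip7 probeset, at a lower mean level of 6.91, gave -0.77 (adjusted p = 0.00108). Rrp9, which binds the U3 snoRNA, lay at 10.31, 10.42 and 10.40 without and at 10.02, 10.09 and 10.04 with induction. It changed by -0.32 ± 0.0776 (adjusted p = 0.0338), again with no overlap. These were 2 of 34 members called lower in an experiment where 6.28% of all probesets were, so the share of members is close to the background. Of 43 other small subunit factors 9 were called lower with Erg (median -0.19, 35 below 0), and of 43 other large subunit factors 9 were (median -0.16, 39 below 0). Of 42 ribosomal proteins 0 were called (median 0.01). Other probesets of 2 members were called higher with Erg, at 0.31 and 0.55 for Ncl and at 0.37 for Mybbp1a, whose probesets of highest mean lay at 0.13 and -0.06 and were not called. The median over the members was -0.06 against -0.02 for all genes.

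Imp4, a protein of the U3 snoRNP that processes small subunit RNA, was called lower both with Runx1, a factor of blood formation, and with Aire, a regulator of immune tolerance. In the Runx1 clones Imp4 lay at 10.38, 10.38 and 10.31 before and at 10.08, 10.19 and 9.97 after induction. The change of -0.28 ± 0.0646 had an adjusted p of 0.0414 by limma (n = 3 pairs). In the Aire clones the levels were 10.48, 10.41 and 10.52 before and 10.00, 10.14 and 10.17 after. That change was -0.37 ± 0.0762 (adjusted p = 0.0365). The other Imp4 probesets, of lower level, were not called, at -0.16 (adjusted p = 0.298) and -0.03 with Aire and at -0.24 (adjusted p = 0.313) with Runx1, and the mean over the Imp4 probesets was called in neither experiment (adjusted p 0.124 and 0.0985). With Aire, other probesets were called lower for Pes1 (-0.74) and Ncl (-0.39), whose probesets of highest mean lay at 0.14 and -0.02. The other member called with Runx1 was Nop2, an RNA methyltransferase of the large subunit, at 10.51, 10.47 and 10.48 before and 10.06, 10.11 and 10.27 after induction. It changed by -0.34 ± 0.0729 (adjusted p = 0.0327). In all 3 pairs the groups did not overlap.

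Runx1 called 2 of 33 members lower where 7.65% of the probesets of its array were called lower, and Aire called 1 of 34 where 1.48% were. In the Runx1 clones Myc itself changed by -2.67, -2.68 and -2.56, with a mean of -2.64 (adjusted p = 8.94e-05). Mycn, a relative of Myc, rose by 0.59 in the same clones (adjusted p = 0.00368). The 33 members had a median change of -0.05 with Runx1, from -0.34 for Nop2 to 0.27 for Utp20, and the median of all genes was -0.02. Of the 12 pluripotency markers 9 were called lower with Runx1 and 7 with Erg, with median changes of -0.49 and -0.41. Their part in the member values was not tested.

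**Figure D2:**
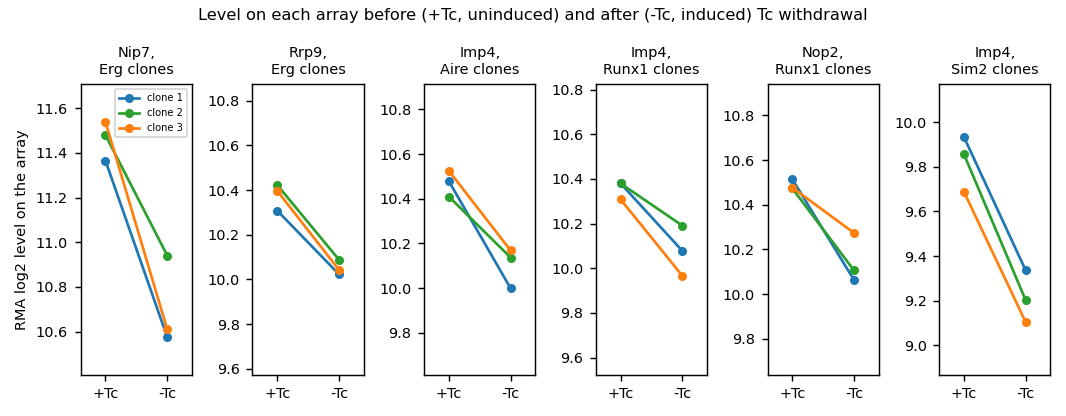
Level on each array (log2, y axis of equal length in each panel) with Tc and after its withdrawal for the 5 called pairs and for Imp4 in the Sim2 clones, where the adjusted p was 0.0519. Lines join the 2 arrays of a clone, and every line runs downward.

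Some of these calls moved with the fit. Without the clone block, Imp4 in the Aire clones had an adjusted p of 0.129. With a plain test that shares no variance between genes and leaves the clones unpaired, 0 members were called for Erg (Nip7 at an adjusted p of 0.0962), and for Runx1 the 1 called member was Bysl. Nip7 in the Erg clones stayed called without any 1 clone, while Rrp9 was lost without each of the 3 (adjusted p 0.0937 to 0.159). Imp4 in the Aire clones was lost without clone 1 or clone 3 (adjusted p 0.0797 and 0.193). In the Runx1 clones 0 members were called without clone 1 or clone 2, and Nop2 alone without clone 3.

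The pattern across members was widest with Sim2, a transcription factor of the basic helix-loop-helix PAS family, 39 h after Tc withdrawal. Of the 34 members 33 were below 0, 28 of them in all 3 clones, and the median change was -0.25 against 0.00 for all genes, of which 50.4% were below 0. The clone medians were -0.24, -0.19 and -0.36, so all 3 clones lay on the same side. The study lists the Sim2 clones in another order than the labels, and with uninduced replicates 1 and 2 exchanged 17 members, not 28, were lower in all 3 clones, while the median change and the count of calls stayed the same. No member passed the test within these 6 arrays by limma, where 0.271% of all probesets were called lower. An unadjusted p under 0.05 was seen for 16 members, all lower, and for 6.65% of all probesets in that direction. For 14 members the arrays did not overlap and the induced ones were lower. The share of all probesets with such arrays was not counted, so this count has no background to be read against.

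**Figure D3:**
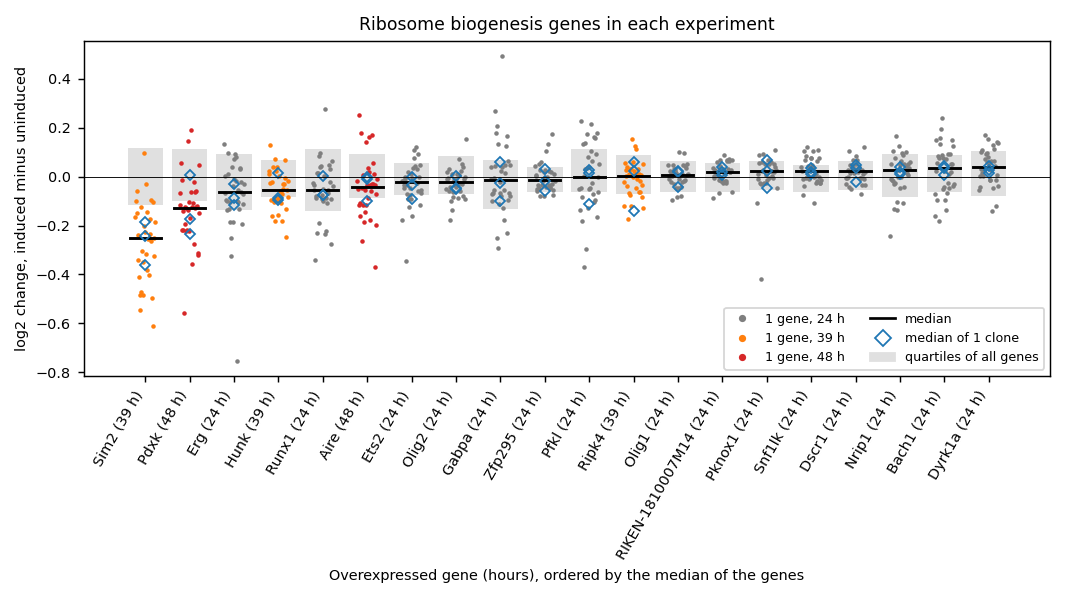
Changes of the members (points, coloured by induction time) in each experiment on a log2 axis, with their median (black line), the median in each clone (diamonds) and the quartiles of all genes (grey band). The medians of Sim2 (-0.25) and Pdxk (-0.13) lie below their grey bands, and the medians of 18 experiments lie within 0.07 of 0.

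Imp4 had the lowest value with Sim2. It lay at 9.93, 9.86 and 9.69 in the uninduced clones and at 9.34, 9.20 and 9.10 in the induced ones, with no overlap. The difference was -0.61 ± 0.0990 (limma adjusted p = 0.0519, n = 3 pairs), which would be a level lower by 34.5%. Polr1b, a core subunit of RNA polymerase I, lay at 9.65, 9.74 and 9.67 before and at 9.27, 9.44 and 8.93 after. Its difference was -0.47 ± 0.122. Nop56, a core protein of the box C/D snoRNPs, lay at 11.80, 11.99 and 12.03 before and at 11.48, 11.70 and 11.42 after. These groups did not overlap for either gene, and clone 3 had the larger difference in both.

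Further members showed the same order of size in the Sim2 clones. Nolc1, a chaperone of the snoRNPs, had differences of -0.43, -0.40 and -0.62 in the 3 clones. Bysl, a factor of small subunit maturation, had differences of -0.27, -0.33 and -0.61, and Utp20, a component of the small subunit processome, of -0.33, -0.23 and -0.59. Nop58, the partner of Nop56, had differences of -0.31, -0.73 and -0.59. For Rrp12 (-0.14, -0.27 and -1.05) and the RNA helicase Ddx21 (-0.29, -0.32 and -0.88) the arrays overlapped between the states, and clone 3 carried most of the mean. Clone 3 had the lowest change of the 3 for 21 of the 34 members, or for 18 with the exchanged pairing, which alters the differences of clones 1 and 2. The single member above 0 was Pes1, a large subunit factor, at 0.07, 0.09 and 0.12, although its partners Bop1 and Wdr12 in the PeBoW complex lay at -0.35 and -0.20.

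**Figure D4:**
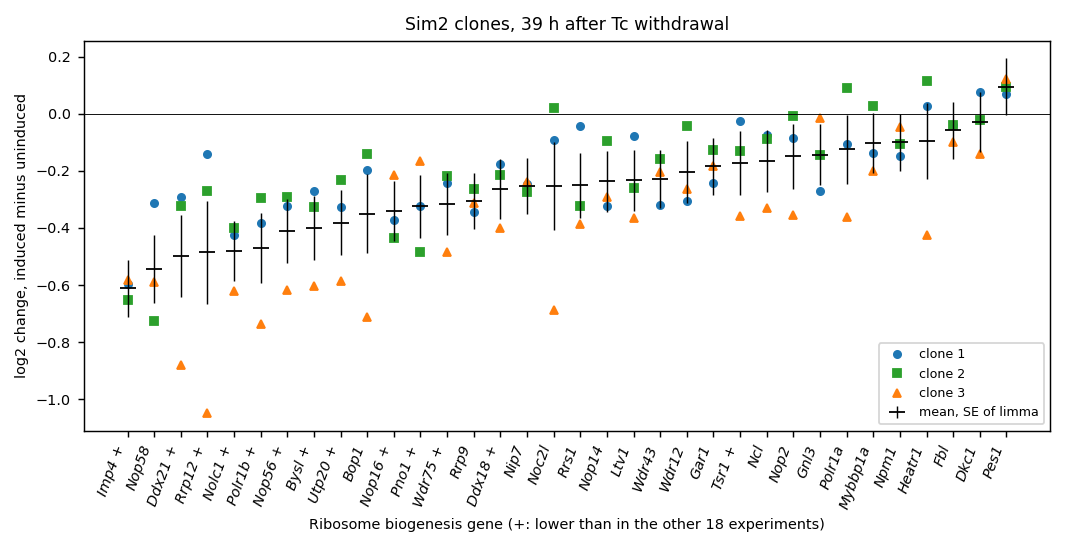
Change of each member in the 3 Sim2 clones (symbols, log2 axis) with the mean and the SE of limma (black), ordered by the mean. A plus sign marks the 13 members whose response was lower than in the other 18 experiments, and the triangles of clone 3 are the lowest of the 3 for 21 members.

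Grouped by role, the Sim2 medians were -0.36 for the 4 box C/D members, -0.32 for the 11 small subunit factors, -0.30 for both polymerase I subunits and -0.25 for the 9 large subunit factors. They were -0.14 for the 5 nucleolar scaffold and chaperone proteins and -0.11 for Dkc1 and Gar1 of the box H/ACA snoRNPs. The abundant nucleolar proteins had small values, with Npm1 at -0.10, Ncl at -0.16, Fbl, the box C/D methyltransferase, at -0.06 and Dkc1, the pseudouridine synthase, at -0.03. For Ncl, however, 2 other probesets of lower level were called lower, at -0.90 (adjusted p = 0.0327) and -0.84 (adjusted p = 0.0381), so the probesets of this gene disagree in size. Over all 35 other probesets of the members, 30 were below 0 with a median of -0.19.

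Related lists showed the following. Of 43 other small subunit factors 34 were below 0 (median -0.21, 1 called lower), and of 43 other large subunit factors 38 were (median -0.22, 0 called). Pol I and its factors had a median of -0.17, with 9 of 10 below 0. Among them Ubtf, which organises ribosomal DNA chromatin for polymerase I, lay at -0.54 (clones -0.47, -0.45 and -0.71, adjusted p = 0.0772), while Rrn3, which recruits the polymerase, lay at -0.02. Of 42 measured ribosomal proteins 15 were below 0, with a median of 0.01, and of 12 pluripotency markers 6 were, with a median of -0.01. Rrp1, an rRNA processing factor and itself a chromosome 21 ortholog, was at 0.12. Myc had differences of -0.24, -0.48 and -1.22 in the 3 Sim2 clones (adjusted p = 0.163) and Mycn of -0.14, 0.54 and -0.37. The part of Myc in the member values was not tested.

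Whether Sim2 differed from the other transgenes was asked of the difference itself, on 57 within-clone differences of the 19 experiments on the Mouse 430_2 array. The moderated F test of limma over all 19 experiments called 6 of the 34 members (17.6%), against 16.2% of all probesets, a share close to the background. The 6 were Nip7 (F = 7.48, adjusted p = 1.83e-06), Utp20 (F = 5.91, adjusted p = 2.83e-05), Imp4 (F = 5.01, adjusted p = 0.000164), Rrp9 (F = 3.45), Polr1b (F = 3.43) and Bysl (F = 3.26). Without replicate 1 or without replicate 3 in every experiment, 1 of these, Nip7, remained called.

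In the contrast of Sim2 with the mean of the other 18 experiments, 13 of 34 members (38.2%) were called lower and 0 higher, while 4.14% of all probesets were called lower. They were Imp4, Ddx21, Polr1b, Nolc1, Rrp12, Utp20, Nop56, Bysl, Nop16, Wdr75, Pno1, Ddx18 and Tsr1. The error of this contrast is pooled over the clones of all 19 experiments, so it is not the spread of the Sim2 clones alone. The median SD of a member over 3 clones was 0.144 with Sim2, in a range from 0.0574 with Snf1lk to 0.152 with Pfkl. Imp4 differed by -0.56 ± 0.0893 (adjusted p = 3e-05), Polr1b by -0.49 ± 0.0867 (adjusted p = 0.000125) and Nolc1 by -0.47 ± 0.0886 (adjusted p = 0.00029). The smallest called difference was that of Tsr1, a late small subunit GTPase-like factor, at -0.20 ± 0.0630 (adjusted p = 0.0349). Sim2 held the lowest of the 19 responses for 24 of the 34 members. With 1 Sim2 clone left out and all other experiments kept, also added after seeing the data, between 8 and 10 members were called, and Imp4, Polr1b, Nolc1, Nop56, Utp20 and Bysl were called whichever clone was missing. With clone 3 left out in all 19 experiments, 2 were called, Imp4 and Utp20. How many of all probesets were called in these refits was not counted.

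Sim2 also belongs to the later time points. Set against the other 4 experiments at 39 or 48 h, a comparison added after seeing the data, 4 of 34 members were called lower, where 0.785% of all probesets were. These were Polr1b (-0.41, adjusted p = 0.0125), Nolc1 (-0.42, adjusted p = 0.0140), Nop56 (-0.39, adjusted p = 0.0143) and Imp4 (-0.37, adjusted p = 0.0332). The median difference of the members was then -0.18.

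The same contrast called single members in 3 other experiments. For Erg, Nip7 (-0.73 ± 0.0703, adjusted p = 3.35e-11) and Rrp9 (-0.25 ± 0.0830, adjusted p = 0.0351) were lower, 2 of 34 where 7.18% of all probesets were. Rrp9 lost its call whichever Erg clone was left out (adjusted p 0.0975 to 0.188), and Nip7 kept it. For Gabpa, another ETS factor, Utp20 was higher by 0.49 ± 0.0797 (adjusted p = 4.55e-05) and the helicase Ddx18 lower by -0.23 ± 0.0736 (adjusted p = 0.0425), with 4.72% of all probesets higher and 4.37% lower. Utp20 lay at 10.29, 10.50 and 10.09 before and 10.65, 10.87 and 10.84 after Gabpa induction, with no overlap. Ddx18 had differences of -0.44, 0.00 and -0.25 in the Gabpa clones, and Myc of 0.30 in clone 2 and -1.30 in clone 3, with a mean of -0.83 (adjusted p = 0.425), so clone 2 stood apart for both. Ddx18 lost its call without Gabpa clone 1 or clone 3 (adjusted p 0.531 and 0.227), while Utp20 kept it without any 1 Gabpa clone.

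Pdxk, pyridoxal kinase, had the second lowest median of the members, -0.13, with 30 of 34 below 0. Within its own arrays 0 members were called by limma, against 0.0333% of probesets called lower. At an unadjusted p under 0.05, 6 members and 6.86% of all probesets were lower. The clone medians were -0.17, 0.01 and -0.24, so clone 2 did not share the shift. Against the other 18 experiments Utp20 (-0.41 ± 0.0797, adjusted p = 0.00180) and Pno1, a factor of small subunit maturation (-0.26 ± 0.0760, adjusted p = 0.0470), were called, 2 of 34 where 0.707% of all probesets were lower. Utp20 lay at 10.76, 10.05 and 10.52 before and at 10.30, 9.95 and 10.00 after. The groups overlapped, since the uninduced array of clone 2 was already low. Clone 2 decided the count, a check added after seeing the data. With it left out 8 members were called, and with clone 1 or clone 3 left out 0 were. How many of all probesets were called in these refits was not counted, so the 8 have no background.

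In the other 15 experiments no member was called within its own arrays, and 0.0644% of their probesets were called lower. Their medians over the members ran from -0.06 with Hunk to 0.04 with Dyrk1a. Apart from Utp20 with Gabpa, the highest single changes among them were 0.27 for Nop58 in the Gabpa clones and 0.24 for Bop1 in the Bach1 clones. The limma adjusted p for Bop1 was 0.986.

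It was also asked whether any member moved the same way whatever gene was induced. On 1 mean difference per experiment, 0 of 34 members were called by limma over the 19 experiments, against 0.00665% of probesets called lower. At an unadjusted p under 0.05, 6 members were lower and 0 higher. The share of all probesets was not counted, so these counts are not read as a result about the members. The median over the members was -0.02 with all genes at 0.00, and 25 of 34 members were below 0. Nop58 had the lowest mean response, -0.15 ± 0.0473 (13 of 19 experiments below 0, adjusted p = 0.161). It was followed by Rrp9 at -0.09, Imp4 at -0.08, Pno1 at -0.07, Nip7 at -0.06 and Ncl at -0.06. Nop58 was lower in all 3 clones of 8 of the 20 experiments, with Pdxk at -0.56, Sim2 at -0.54 and Pknox1 at -0.42. Its mean changes had the largest SD over the 19 experiments of the 34 members, 0.223, and its clones scattered, with values of 0.42, 0.33 and -1.15 for Nrip1 and -0.27, 0.78 and 0.30 for Gabpa.

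The other members had mean responses between -0.05 and 0.03. Among the small subunit factors these were -0.05 for Bysl and Rrp12, -0.04 for Wdr43 and Nop14, -0.03 for Wdr75 and Ltv1, 0.02 for Heatr1 and Tsr1 and 0.03 for Utp20. Among the large subunit factors they were -0.05 for Rrs1 and Nop16, -0.04 for Wdr12, -0.02 for Noc2l, Bop1 and Ddx18, 0.02 for Nop2 and 0.03 for Pes1. Nolc1 lay at -0.04, Npm1 and Nop56 at -0.02, and Fbl, Gar1 and Polr1b at -0.01. Polr1a, Mybbp1a, Gnl3 and Ddx21 lay at 0.00 and Dkc1 at 0.03. With all 57 clone differences as units and the experiment as a random block, Rrp9 and Pno1 were called lower, 2 of 34 where 1.45% of all probesets were. Myc had a mean response of -0.03 and Mycn of 0.14 (adjusted p = 0.116), and Ubtf, Rrn3 and Rrp1 lay between -0.02 and 0.01.

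The last question was the induction time. The 5 experiments at 39 or 48 h were compared with the 14 at 24 h on the same array, with Pfkl taken as 24 h by its label. The times hold different transgenes, so time and transgene cannot be told apart. Array medians also went with time. They lay at 5.33 or above in the later experiments and ran from 4.89 to 5.41 in those at 24 h on this array. The part of this array level in the time comparison was not tested. The members' median difference was -0.10, with 31 of 34 below 0, against -0.01 for all genes, of which 52.8% were below 0. Called lower were 3 members, Imp4, Pno1 and Bysl, where 2.21% of all probesets were. All 3 are among the 11 small subunit factors of the 34 members. Outside the members, 2 of 43 other small subunit factors and 3 of 43 other large subunit factors were called lower. At an unadjusted p under 0.05, 16 members were lower and 1 was higher. The share of all probesets was not counted, so these counts are not read as a result about the members.

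Imp4 showed the largest difference, -0.32 ± 0.0677 (limma adjusted p = 0.00794). Its response at 24 h ran from -0.19 to 0.14 with a median of 0.03 over 14 experiments. It was -0.25 for Hunk, -0.04 for Ripk4, -0.61 for Sim2, -0.37 for Aire and -0.31 for Pdxk. Ripk4 thus fell among the 24 h experiments, and its clones ran from -0.52 to 0.32. Pno1 differed by -0.17 ± 0.0440 (adjusted p = 0.0290), from a range of -0.12 to 0.04 at 24 h to values from -0.32 to -0.06 later, which overlap. Bysl differed by -0.18 ± 0.0520 (adjusted p = 0.0443). Its 24 h responses ran from -0.11 to 0.13, and the later ones from -0.40 to -0.01.

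**Figure D5:**
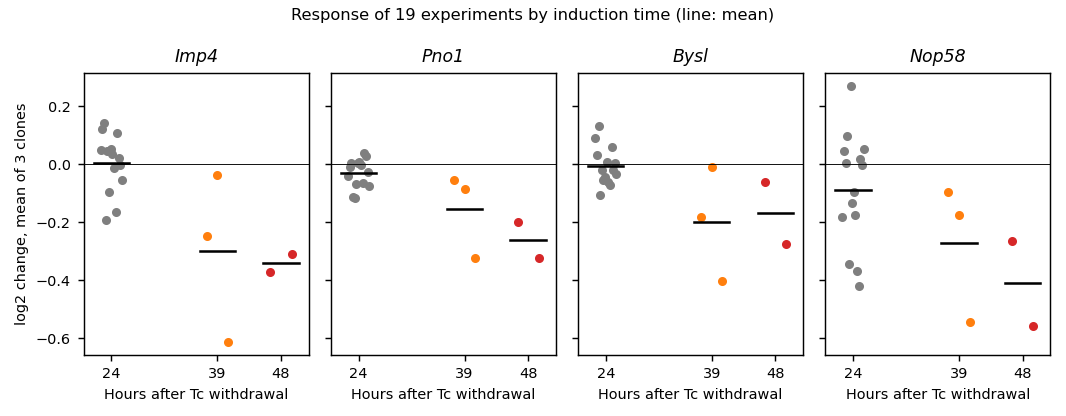
Mean change of 3 clones (log2) in each of 19 experiments against hours after Tc withdrawal for Imp4, Pno1, Bysl and Nop58, with the mean of each time as a line. At 39 and 48 h all points lie below 0, and for each gene at least 1 of them lies within the range of the 24 h points.

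The calls ended with clone 2 left out in all experiments, when 0 members were called (Imp4 at an adjusted p of 0.0935), and Imp4 alone was called without clone 1 or clone 3. The difference also leaned on Sim2. Without Sim2 the median was -0.07 and 1 member, Imp4, was called. Without Pdxk it was likewise Imp4 alone. Without Hunk, or without Ripk4, there were 6 called members. With 39 h alone against 24 h 0 members were called. Of the other lists, Riok2 (-0.34) and Dhx37 (-0.33) of the small subunit and Ddx56 (-0.26), Sbds (-0.22) and Rrp8 (-0.31) of the large subunit were called lower at the later times. Ribosomal proteins had a median of 0.01 with 0 called. In the Myc network Mxi1, a repressor of that family, rose by 0.35 (adjusted p = 0.00365), while Myc differed by -0.30 (adjusted p = 0.229). Of the marker lists Sox7 (-0.49) and Pax6 (-0.37) were lower and Krt7 (0.53) and Map2 (0.61) higher at the later times. Their part in the result was not tested.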

How the data were processed

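The authors hybridised RNA of each clone to Affymetrix Mouse 430_2 or, for Runx1, Mouse 430A_2 arrays and deposited log2 values made with RMA in the affy package (versions not given in the sources used here). RMA normalises by quantiles and can compress changes of bright probesets. Array medians ran from 4.89 to 5.68 and from 7.11 to 7.19, so levels were compared within an experiment only. The number of arrays limits the precision.

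Groups came from the sample labels. Probesets with 1 annotated gene were named (34958 of 45101 and 20393 of 22690). Members had 69 and 56 probesets, and the one of highest mean per gene was used. Each experiment was fitted with limma 3.58.1 in R 4.3.3 with the clone as a block, and p-values were adjusted by Benjamini-Hochberg over all probesets. The deposited design states that clones were profiled before and after induction, and same-numbered arrays deviated together by a correlation over 0.1 in 54 of 60 pairs (median 0.376). The lowest correlation was -0.180, for Gabpa clone 2. Fits across experiments used within-clone differences or their means on 1 array design. 1 probeset had no value in the Sim2 arrays. The study's own test for calls was Cyber-t, a Bayesian t-test, which was not run here. The fit of each experiment, the mean response, the time comparison and the F test were tried on data with planted changes. The contrasts of 1 experiment with others and the remaining fits were not.

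All 34 members are named. Clone values are given for the 3 largest called changes per experiment, the 3 smallest adjusted p of the F test, and Imp4 and Bysl of the time comparison. For Myc, Mycn, Rrn3, Ubtf, Rrp1 and the overexpressed gene, some values are given by clone and others as means only. Further clone values were picked with the values in view. The members, lists and motifs were chosen with earlier results of these data known. The clones of all experiments derive from 1 parental line, so the p-values cover clone-to-clone variation and no wider sampling.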

Additional observations from a re-analysis of the deposited data

Results flagged for a closer look

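Members whose response differed between experiments, by a test of the difference itself, are listed with their values. In the F test over 19 experiments these were Nip7 (F = 7.48), Utp20 (5.91), Imp4 (5.01), Rrp9 (3.45), Polr1b (3.43) and Bysl (3.26).

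Against the mean of the other 18 experiments, Sim2 differed in log2 change for Imp4 (-0.56), Ddx21 (-0.53), Polr1b (-0.49), Nolc1 (-0.47), Rrp12 (-0.46), Utp20 (-0.44), Nop56 (-0.41), Bysl (-0.37), Nop16 (-0.31), Wdr75 (-0.30), Pno1 (-0.26), Ddx18 (-0.26) and Tsr1 (-0.20). Erg differed for Nip7 (-0.73) and Rrp9 (-0.25). Gabpa differed for Utp20 (0.49) and Ddx18 (-0.23), and Pdxk for Utp20 (-0.41) and Pno1 (-0.26).

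The later experiments differed from those at 24 h for Imp4 (-0.32), Bysl (-0.18) and Pno1 (-0.17).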

How the results depend on the processing

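Of the values recomputed under alternatives, 534 counts and medians stayed within their limits and 71 moved, while of the values of single members 256 kept their call, 123 lost it and 0 changed sign. Without the replicate block the called members were 0 for Aire, 2 for Erg and 3 for Runx1, and the block changed no other count of calls. With a plain t-test, unpaired and unmoderated, 0 members were called for Aire, 0 for Erg and 1 for Runx1. With an intensity trend and robust variances 2 were called for Aire, 1 for Olig2, 4 for Sim2, 6 for Runx1 (5 lower, 1 higher) and 1 for Pdxk against the others. Further quantile normalization gave 1 for Sim2 and a median of 0.0067 for Dyrk1a. Arrays centred on their median gave 5 for Runx1 (median -0.11), a median of 0.0832 for Dyrk1a and 1 for Pdxk against the others. Dim probesets left out gave 4 for Runx1. The mean of all probesets of a gene gave 0 for Aire, 1 for Sim2 and medians of 0.0030 for Bach1, 0.0048 for Nrip1 and 0.0016 for RIKEN-1810007M14, and, added after seeing the data, 4 for Pdxk against the others and 6 for later minus 24 h. In the mean response, clones as units gave 2 called members and 24 h experiments alone a median of 0.0031. Sim2 against the other 4 later experiments, also added later, gave 4. The time comparison gave 0 with 39 h alone and 5 with Pfkl, labelled 24 h, taken as 39 h as the study's induction table has it. Shares of all probesets are given above for the clones as units and for the 4 later experiments. For the other alternatives, here and in the next paragraph, they were not counted. Those counts of members therefore have no background, and a change in them can follow the number of calls on the whole array. The cause was not tested in any of these.

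Leaving out 1 replicate gave 0 to 1 called members for Aire, 1 to 1 for Erg, 0 to 1 for Runx1, 0 to 7 for Pdxk and 0 to 1 for Sim2, with medians of 0.0149 to 0.0546 for Bach1 and 0.0265 to 0.0633 for Dyrk1a. It gave 1 to 5 in the F test. Leaving out 1 clone number in all experiments or 1 clone of the named experiment gave 2 to 10 for Sim2, 0 to 8 for Pdxk, 1 to 1 for Erg and 0 to 3 for Gabpa against the others. For later minus 24 h, leaving out a replicate or an experiment gave 0 to 6 called members and medians of -0.127 to -0.0683, with 0 without replicate 2, 1 without Sim2 or Pdxk, 5 without Erg and 6 without Hunk or Ripk4.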
